A study of Homo sapiens with 16 samples.

Results

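The genes described here are histone modifying enzymes that do not belong to the CoREST complex, together with core partners of the Polycomb methyltransferase EZH2: deacetylases, demethylases, lysine methyltransferases, acetyltransferases and arginine methyltransferases. They were chosen as a list of 52 gene symbols, and the rows of the count table that carried these symbols were taken. Of the 52 symbols, 51 were found among the 60603 genes of the table. SIRT6 was listed there under a clone name with its Ensembl identifier and is given apart at the end.

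The data are bulk RNA sequencing of 2 human acute myeloid leukemia cell lines. SKNO-1 carries the RUNX1-RUNX1T1 fusion and was grown with GM-CSF at 10 ng/mL, and U-937 is a monocytic line grown without it. Cells of each line received DMSO as solvent, ATRA (all-trans retinoic acid) at 0.1 µM, Corin at 0.1 µM, or ATRA with Corin at 0.1 µM each, and were collected after 24 h. ATRA binds and activates the retinoic acid receptors, and Corin inhibits the demethylase LSD1 (KDM1A) and the deacetylases HDAC1 and HDAC2 of the CoREST complex. Each of the 8 groups had 2 libraries. No label says that these came from separate cultures, so p-values measure only the spread between these libraries, which may be technical.

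Histone modifying enzymes are grouped as writers, which add acetyl or methyl groups to histone tails, and erasers, which take them off. Acetylation and methylation of H3K4, H3K36 and H3K79 mark active genes, whereas methylation of H3K27, laid down by Polycomb repressive complex PRC2, and of H3K9 mark silenced chromatin. Several of these enzymes, among them KMT2A, DOT1L, EZH2, PRMT1 and PRMT5, are studied as drug targets in myeloid leukemia.

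Total estimated counts were 32.8 to 37.8 M (mega) per library in SKNO-1 and 28.4 to 37.6 M in U-937. RUNX1T1 was at 92.0 to 148 CPM (counts scaled to library size) in the SKNO-1 libraries and at 0 to 0.0344 in U-937, and HOXA9 and HOXA10 were at 0 in SKNO-1 and at 38.4 to 70.7 and 74.8 to 91.2 CPM in U-937. MPO, the myeloperoxidase of granulocyte precursors, was at 1756 to 3902 CPM in SKNO-1 and at 0.106 to 0.469 in U-937. Markers of T, B, erythroid, epithelial and fibroblast cells (10 genes) summed to 0.0540 to 0.285 CPM in SKNO-1 and 1.66 to 3.59 in U-937. The 2 SKNO-1 DMSO libraries stood apart from one another: the SD of their log2 difference over genes was 0.361, against 0.108 to 0.208 in the other 7 groups. That difference followed the GC content of the genes (r = 0.785 across 9354 genes, which are not independent replicates). Smaller differences that followed GC content were also present in U-937 DMSO (r = 0.568), U-937 with both agents (r = 0.403) and SKNO-1 with ATRA (r = -0.422). Every comparison with DMSO in SKNO-1 rests on the 2 SKNO-1 DMSO libraries.

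Levels of different genes are compared in TPM, the transcript abundance scaled by transcript length and library size. In DMSO the median member was at 13.53 TPM in SKNO-1 and at 17.15 TPM in U-937. PRMT5, which methylates arginines symmetrically, led in SKNO-1 at 133 ± 29.7 TPM (SD, n = 2), followed by PRMT1, the main asymmetric arginine methyltransferase, at 98.6 ± 11 TPM. The H3K4 demethylase KDM5B was next at 87.6 ± 29.9 TPM, a difference from PRMT1 within the spread of the libraries. In U-937 PRMT1 was at 86.4 ± 4.04 TPM, KDM5B at 82.6 ± 4.47 and PRMT5 at 65.4 ± 10.2, so the same 3 genes led, and PRMT1 and KDM5B were within their spread of each other. In SKNO-1, 5 members were below 1 TPM: HDAC11 (0.045), HDAC9 (0.125), KDM7A (0.14), SETD1B (0.66) and KDM6B (0.705). In U-937, 2 were below 1 TPM, HDAC9 at 0.21 and HDAC4 at 0.

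**Figure D1:**
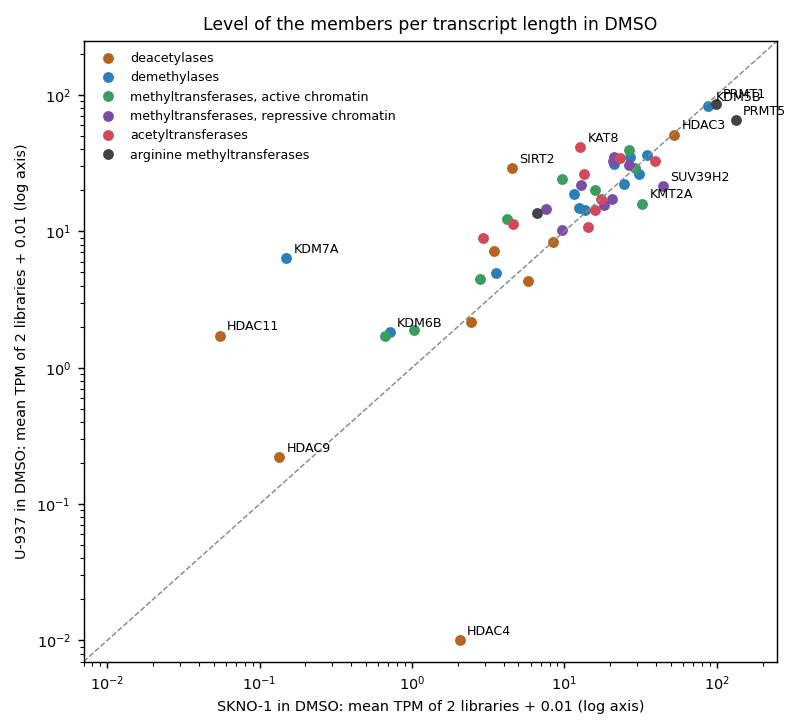
Mean TPM of each member in DMSO, SKNO-1 on the horizontal and U-937 on the vertical axis, on log scales with 0.01 TPM added. PRMT1, PRMT5 and KDM5B lie at the upper right, and HDAC4, HDAC11 and KDM7A lie far from the diagonal.

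Between the lines in DMSO, 21 members were higher and 20 lower in U-937 of 51 tested with the quasi-likelihood test of edgeR and Benjamini-Hochberg adjustment (adjusted p under 0.05, the call used throughout). Among all genes tested in that comparison 31.7% were higher and 33.1% lower (64.8% in either direction), and 41 of the 51 enzymes were called in either direction. The split moved to 24 higher and 9 lower when libraries were scaled by their totals alone, a scaling that shifted the median of all genes by 0.16 on the log2 scale. HDAC4, a class IIa deacetylase, had 1001 counts in the 2 SKNO-1 DMSO libraries and 0 in those of U-937, at least 282-fold lower in U-937 when 3 counts are put in place of the 0. HDAC11, the class IV deacetylase, was at 0.0578 and 0.0527 CPM in the SKNO-1 DMSO libraries and at 3.07 and 3.36 in those of U-937. KDM7A, an H3K9 and H3K27 demethylase, was at 1.01 and 1.37 CPM in SKNO-1 and 45.1 and 53.5 in U-937.

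These CPM values were scaled within each line, and neither pair of libraries overlapped the other. In the fit over all 16 libraries the log2 difference was 5.65 (SE 0.42, adjusted p = 4.68e-10) for HDAC11 and 5.23 (SE 0.17, adjusted p = 1.77e-15) for KDM7A. The sirtuin SIRT2 had 10.9 and 7.53 CPM in SKNO-1 and 52.5 and 49.3 in U-937, a log2 difference of 2.34 (SE 0.14, adjusted p = 1.90e-11). KMT2A, PRMT5 and the H3K9 methyltransferase SUV39H2 were lower in U-937, by log2 differences of -1.38, -1.21 and -1.28.

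In SKNO-1, ATRA alone gave 0 calls among the 51 members by edgeR's quasi-likelihood test and 0 by DESeq2, and 4 members had an unadjusted p under 0.05. Of all genes tested, 6.76% were called in that comparison (2.96% higher, 3.79% lower). The count rested on the DMSO libraries: it was 22 without the first SKNO-1 DMSO library and 9 without the second. Corin alone gave 4 members higher and 17 lower, against 20.5% higher and 17.3% lower (37.9% in either direction) among all genes tested. The count of 21 became 34 without the second DMSO library, 11 without the first Corin library and 12 without the second. Both agents gave 5 higher and 15 lower, against 24.7% and 22.0% of all genes (46.7% in either direction), and the count of 20 became 37 without the first DMSO library and 13 without the second library with both agents. The median log2 change of the members was -0.18 with Corin and -0.12 with both agents, beside 0.00 and 0.05 for all genes tested. In both comparisons the share of members called higher was below that of all genes and the share called lower above it, a difference that was not tested.

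In U-937, where 50 members had enough counts to be tested (HDAC4 had 9 counts over the 8 libraries), ATRA alone gave 11 members higher and 10 lower, against 21.7% higher and 20.1% lower (41.8% in either direction) among all genes tested. The split was 6 to 10 with libraries scaled by totals alone and 10 to 14 with the trend on GC content removed. Corin alone gave 2 higher and 5 lower, against 8.55% and 4.4% of all genes (12.9% in either direction). That count of 7 fell to 2 without the second DMSO library and to 3 without the first Corin library, and was 2 higher and 11 lower with the GC trend removed. Both agents gave 15 higher and 23 lower, against 33.1% and 32.2% (65.3% in either direction), with a median log2 change of -0.20 beside 0.03 for all genes. The share of members called lower was above that of all genes, a difference that was not tested.

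**Figure D2:**
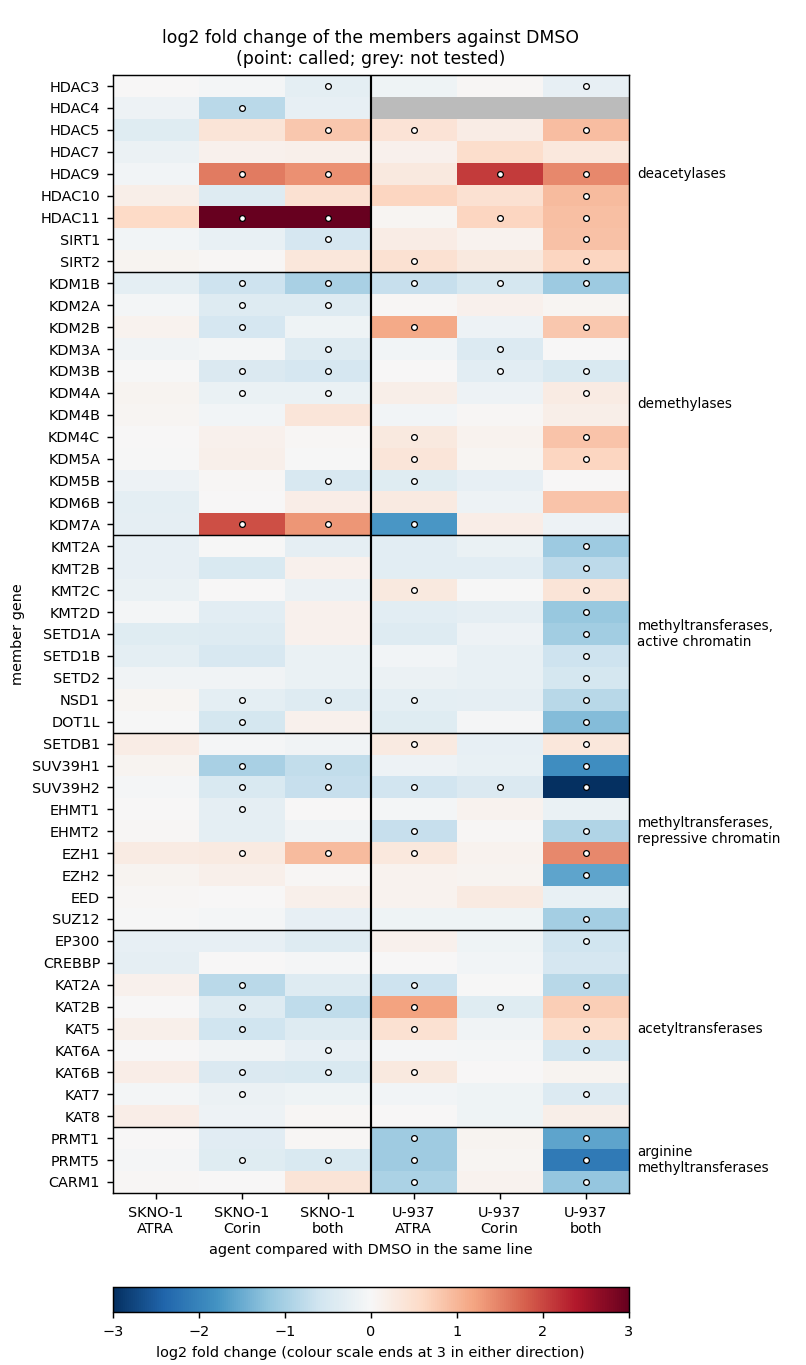
Log2 fold change of the 51 members against DMSO of the same line, grouped by class, for ATRA, Corin and both agents in each line; colour runs from -3 to 3, a point marks adjusted p under 0.05 and grey marks HDAC4, not tested in U-937. The column of both agents in U-937 holds 38 calls and that of ATRA in SKNO-1 holds none by edgeR's quasi-likelihood test (0 by DESeq2, 4 at an unadjusted p under 0.05).

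The repressive methyltransferases and PRC2 subunits held the member with the largest fall and the one with the largest rise with both agents in U-937, SUV39H2 and EZH1. Of the 9 members of this class, 5 fell and 2 rose, with a median log2 change of -0.91, beside 32.2% lower and 33.1% higher among all genes tested. EZH2 and EZH1 are the alternative catalytic subunits of PRC2, EED and SUZ12 its core partners, and SUV39H1, SUV39H2, EHMT1, EHMT2 and SETDB1 methylate H3K9. The promoters of EZH2, SUZ12 and EZH1 are shown first because the PRC2 genes moved in opposite directions. They span 250 bases before to 50 bases after a start of the gene listed in RefSeq on GRCh38.p14, written on the gene's strand. The gene spans printed with Ensembl identifiers come from the GENCODE annotation, whose starts can differ. Capitals mark matches, on either strand, to TTTGGCGC or TTTCCCGC (motifs of the E2F type, as in many genes of the cell cycle), to CCAAT and to AGGTCA, a core motif of retinoid receptors.
EZH2, chr7:148884242-148884541, minus strand: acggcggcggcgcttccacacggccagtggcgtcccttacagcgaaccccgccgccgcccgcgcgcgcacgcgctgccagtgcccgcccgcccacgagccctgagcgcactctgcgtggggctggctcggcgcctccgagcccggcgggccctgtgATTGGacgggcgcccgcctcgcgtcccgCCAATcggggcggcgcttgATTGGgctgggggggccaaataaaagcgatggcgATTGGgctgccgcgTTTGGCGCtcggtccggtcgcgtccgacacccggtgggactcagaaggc
SUZ12, chr17:31936757-31937056, plus strand: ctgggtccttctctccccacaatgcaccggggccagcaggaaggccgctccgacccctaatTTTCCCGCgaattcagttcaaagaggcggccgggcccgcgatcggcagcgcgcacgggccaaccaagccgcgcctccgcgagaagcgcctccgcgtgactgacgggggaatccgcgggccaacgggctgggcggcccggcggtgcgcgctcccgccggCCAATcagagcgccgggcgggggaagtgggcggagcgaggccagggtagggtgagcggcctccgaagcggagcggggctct
EZH1, chr17:42744991-42745290, minus strand: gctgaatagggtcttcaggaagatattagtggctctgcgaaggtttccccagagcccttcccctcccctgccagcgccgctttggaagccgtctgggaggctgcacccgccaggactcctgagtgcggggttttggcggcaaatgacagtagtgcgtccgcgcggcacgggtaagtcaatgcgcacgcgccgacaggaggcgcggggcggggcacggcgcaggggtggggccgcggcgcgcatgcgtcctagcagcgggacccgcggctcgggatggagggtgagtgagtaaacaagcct

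The EZH2 window held 1 TTTGGCGC and 4 CCAAT, that of SUZ12 held 1 TTTCCCGC and 1 CCAAT, and that of EZH1 held none of the 4 motifs. TTTGGCGC was in 0.652% of the 35116 promoters of the RefSeq table and in 1 of the 46 members with an entry there (EZH2). TTTCCCGC was in 1.63% and in 2 members (KDM1B and SUZ12), CCAAT in 34.6% and in 13 members, and AGGTCA in 13.8% and in 2 members (HDAC9 and PRMT1). A match is a description of the letters only.

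EZH2 (ENSG00000106462.10, chr7:148807257-148884321, GRCh38) was at 80.2 and 83.8 CPM in the U-937 DMSO libraries, 86.0 and 91.6 with ATRA, 88.1 and 86.9 with Corin, and 26.5 and 28.6 with both. Both libraries with both agents lay below all 6 others. The log2 change with both agents was -1.57 (SE 0.10, adjusted p = 1.58e-12). EZH1 (ENSG00000108799.13, chr17:42700275-42745049) was at 29.6 and 27.9 CPM in DMSO, 37.8 and 33.7 with ATRA, 29.4 and 32.1 with Corin, and 79.7 and 76.0 with both. It went the other way, with a log2 change of 1.44 (SE 0.10, adjusted p = 1.97e-11). In TPM the ratio of EZH2 to EZH1 was 3.29 and 3.13 in the 2 DMSO libraries and 0.409 and 0.419 with both agents, so the order of the 2 catalytic subunits turned.

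SUZ12 (ENSG00000178691.11, chr17:31937007-32001038) was at 128 and 145 CPM in DMSO, 124 and 126 with ATRA, 123 and 125 with Corin, and 65.0 and 69.9 with both, a log2 change of -1.02 with both agents (SE 0.10, adjusted p = 2.61e-09). Reads of SUZ12 can be shared with a near-identical pseudogene, so the split between them is uncertain. EED was at 24.7 and 27.5 CPM in DMSO and at 22.0 and 23.1 with both agents, which did not pass the test.

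In SKNO-1, EZH2 was at 59.9 and 63.3 CPM in DMSO and at 61.3 and 65.8 with both agents, overlapping ranges. EZH1 was at 34.9 and 33.4 CPM in DMSO, 43.0 and 38 with ATRA, 39.6 and 42.1 with Corin, and 65.2 and 66.5 with both. It rose with both agents by 0.95 on the log2 scale (SE 0.08, adjusted p = 7.86e-05) and with Corin alone by 0.26 (SE 0.08, adjusted p = 0.0387). The call with Corin alone was lost without any single ATRA, Corin or combined library (adjusted p 0.0629 to 0.216). The TPM ratio of EZH2 to EZH1 was 2.21 and 2.10 in SKNO-1 DMSO and 1.05 and 1.06 with both agents. EZH1 thus rose in both lines, while EZH2 was called lower in U-937 and not called in SKNO-1. The difference between the lines in the EZH2 response was itself called, at -1.57 on the log2 scale.

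Among the H3K9 methyltransferases, the SUV39H pair of heterochromatin fell furthest. SUV39H2 (ENSG00000152455.15, chr10:14878820-14904315) was at 38.1 and 43.4 CPM in U-937 DMSO, 28.1 and 26.7 with ATRA, 30.4 and 30.1 with Corin, and 4.53 and 5.74 with both. Its log2 change was -2.99 with both agents (SE 0.13, adjusted p = 2.27e-15), -0.57 with ATRA (SE 0.11, adjusted p = 0.000279) and -0.43 with Corin (SE 0.11, adjusted p = 0.0127). The call with Corin was lost without the second DMSO library (adjusted p = 0.187) and without the second Corin library (0.0516). No other member fell as far in a comparison with DMSO. SUV39H1 (ENSG00000101945.16, chrX:48695554-48709016) was at 42.7 and 37.3 CPM in DMSO, 34.7 and 36.9 with ATRA, 33.4 and 34.9 with Corin, and 10.8 and 11.2 with both, a log2 change of -1.86 (SE 0.11, adjusted p = 8.90e-13). Neither agent alone gave a call for SUV39H1 in U-937.

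In SKNO-1, SUV39H1 was at 26.8 and 21.4 CPM in DMSO, 24.8 and 26.3 with ATRA, 12.2 and 12.2 with Corin, and 14.0 and 14.9 with both. It fell with Corin by 0.98 on the log2 scale (SE 0.12, adjusted p = 0.000631) and with both agents by 0.73 (SE 0.12, adjusted p = 0.00181). SUV39H2 fell by 0.46 with Corin and by 0.68 with both agents. EHMT2, which writes H3K9 methylation in euchromatin, fell in U-937 with ATRA by 0.68 (adjusted p = 0.000161) and with both agents by 0.91 (adjusted p = 2.19e-06), and SETDB1 rose with both agents by 0.33 (adjusted p = 0.00399).

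With both agents in U-937, 2 of the 9 repressive methyltransferase and PRC2 members rose and 5 fell, beside 33.1% higher and 32.2% lower among all genes tested. Cell cycle genes are given here for the same libraries. A list of 15 (such as MCM2, PCNA, CCNB1 and MKI67), drawn up after the data had been seen, summed to 4648 to 4819 CPM in U-937 DMSO, 5059 to 5209 with ATRA, 4354 to 4639 with Corin and 1126 to 1362 with both agents. All 15 fell with both agents in U-937, by a median log2 change of -2.14. With ATRA alone there, 3 of the 15 rose and 4 fell, and 2 of the 9 members rose and 2 fell. Among all genes tested, 21.7% were higher and 20.1% lower in that comparison. In SKNO-1 the 15 cell cycle genes summed to 3501 to 3595 CPM in DMSO, 3047 to 3099 with Corin and 2898 to 2904 with both agents. With Corin 1 of the 15 rose and 9 fell there, beside 20.5% higher and 17.3% lower among all genes tested. With both agents 1 rose and 8 fell, beside 24.7% and 22.0%. The summed level of 5 myeloid markers in U-937 was 515 to 550 CPM in DMSO, 698 to 715 with ATRA, 2258 to 2642 with Corin and 3182 to 3461 with both. That sum was carried mostly by LYZ, the lysozyme gene (216 to 2775 CPM over the U-937 libraries), and MPO was near 0 there and not tested. With Corin in U-937, LYZ was the 1 marker of 4 tested that rose, by 3.23 on the log2 scale, and with both agents all 4 rose, LYZ by 3.54. In SKNO-1 the sum was 2969 to 3991 CPM in DMSO, 3839 to 4171 with ATRA, 2365 to 2514 with Corin and 3003 to 3074 with both, carried mostly by MPO. Single markers there went both ways: with Corin 2 of 5 rose (LYZ by 2.35) and MPO fell by 0.79, with both agents LYZ rose by 2.63 and 2 fell, and with ATRA 3 fell and none of the 5 rose by edgeR's quasi-likelihood test. The part of either change in the results on the enzymes was not tested. In bulk RNA, fewer cells of a type and less RNA per cell cannot be told apart.

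**Figure D3:**
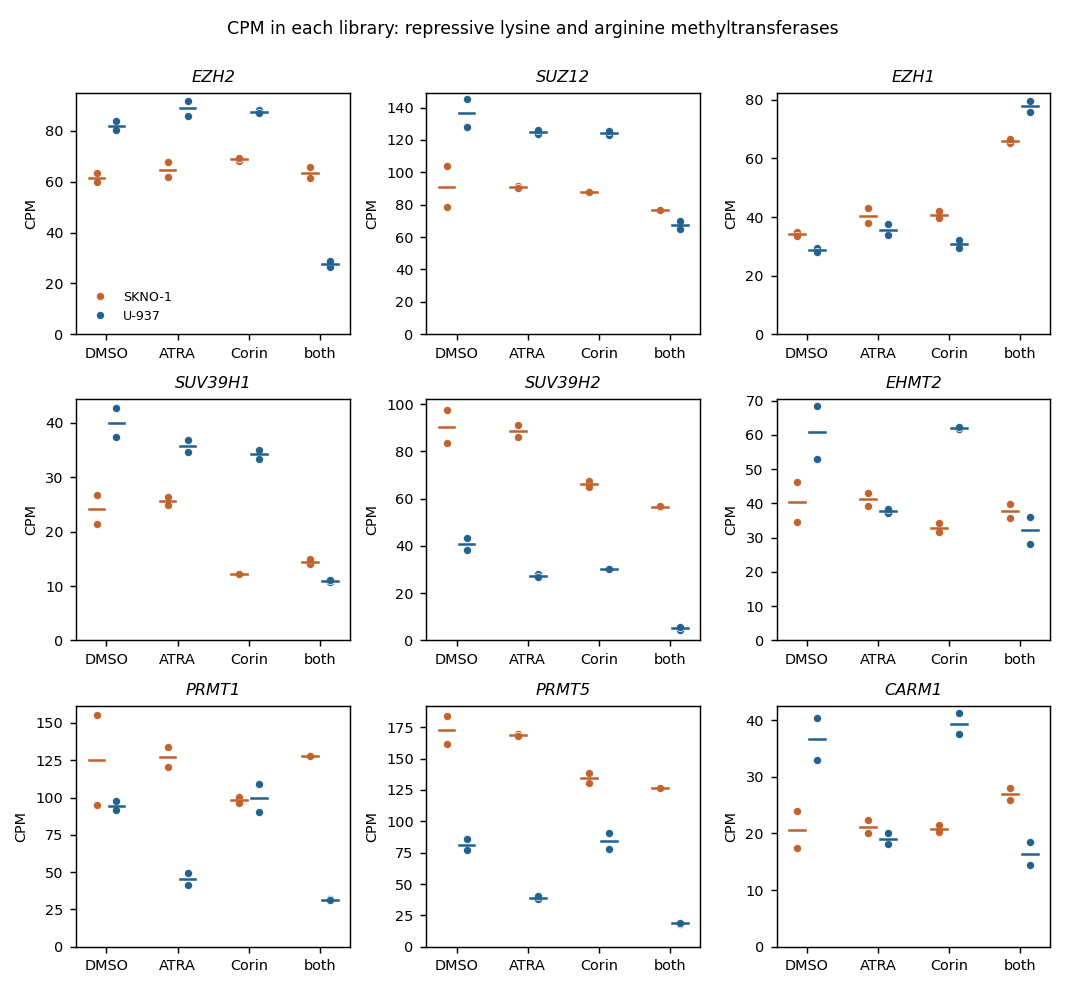
CPM of 9 repressive and arginine methyltransferase genes in each library (points) with group means (bars), for 4 treatments in each line, each axis starting at 0. In U-937 with both agents EZH2, SUZ12, SUV39H1, SUV39H2, PRMT1 and PRMT5 sit below the other groups and EZH1 above them.

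The arginine methyltransferases PRMT1, PRMT5 and CARM1 were the class that fell with ATRA alone in U-937, all 3 of 3, and all 3 fell with both agents. Of all genes tested, 20.1% were called lower with ATRA and 32.2% with both agents. The promoters of PRMT5 and PRMT1, which fell with ATRA by equal amounts, are shown in the same way.
PRMT5, chr14:22929327-22929626, minus strand: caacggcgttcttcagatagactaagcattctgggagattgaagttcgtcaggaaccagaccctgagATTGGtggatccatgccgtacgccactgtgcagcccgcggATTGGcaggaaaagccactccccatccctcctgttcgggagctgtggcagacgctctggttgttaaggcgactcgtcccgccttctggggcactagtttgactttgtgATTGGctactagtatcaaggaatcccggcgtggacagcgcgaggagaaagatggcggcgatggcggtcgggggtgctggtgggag
PRMT1, chr19:49677021-49677320, plus strand: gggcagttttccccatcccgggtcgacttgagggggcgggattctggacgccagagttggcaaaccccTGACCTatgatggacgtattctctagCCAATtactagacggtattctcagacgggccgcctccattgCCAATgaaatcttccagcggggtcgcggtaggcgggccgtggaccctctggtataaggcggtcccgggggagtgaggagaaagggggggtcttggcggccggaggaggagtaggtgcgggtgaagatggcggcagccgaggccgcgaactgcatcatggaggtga

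The PRMT5 window held 3 CCAAT, and that of PRMT1 held 2 CCAAT and 1 AGGTCA (on the opposite strand, read here as TGACCT). The PRMT1 window lies inside the GENCODE span of the gene given next, past its start. PRMT5 (ENSG00000100462.16, chr14:22920525-22929408) was at 77.2 and 85.5 CPM in U-937 DMSO, 37.7 and 40.2 with ATRA, 91.0 and 77.8 with Corin, and 18.0 and 19.2 with both. PRMT1 (ENSG00000126457.21, chr19:49675786-49689029) was at 97.6 and 91.7 CPM in DMSO, 41.4 and 49.7 with ATRA, 109 and 90.5 with Corin, and 31.8 and 31.2 with both. For both genes, the Corin libraries overlapped those in DMSO, and the libraries with ATRA lay below them.

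With ATRA the log2 change was -1.06 for PRMT5 (SE 0.11, adjusted p = 2.00e-08) and -1.06 for PRMT1 (SE 0.11, adjusted p = 4.52e-08). With both agents it was -2.13 for PRMT5 (SE 0.11, adjusted p = 4.47e-14) and -1.59 for PRMT1 (SE 0.11, adjusted p = 1.31e-11). CARM1, a coactivator of nuclear receptors, was at 40.3 and 33.0 CPM in DMSO, 18.1 and 20.03 with ATRA, 41.2 and 37.5 with Corin, and 18.5 and 14.4 with both. Its log2 change was -0.95 with ATRA (SE 0.13, adjusted p = 2.66e-06) and -1.15 with both agents (SE 0.13, adjusted p = 5.21e-08).

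In SKNO-1, PRMT5 was at 184 and 161 CPM in DMSO, 170 and 168 with ATRA, 138 and 131 with Corin and 127 and 126 with both. It fell by 0.36 on the log2 scale with Corin (adjusted p = 0.00599, and 0.0615 without the second Corin library) and by 0.45 with both agents (adjusted p = 0.00162). PRMT1 ran from 95.3 to 155 CPM over the 2 SKNO-1 DMSO libraries, a range that took in its 6 other libraries. No arginine methyltransferase was called with ATRA in SKNO-1, and the ATRA effect differed between the lines by -1.04 for PRMT1, -0.99 for PRMT5 and -0.95 for CARM1, all called.

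The methyltransferases of active chromatin fell as a class with both agents in U-937, 8 of 9, with 1 rising and a median log2 change of -0.83. Among all genes tested 32.2% were lower and 33.1% higher in that comparison. With ATRA alone 1 member was higher and 1 lower, beside 21.7% and 20.1% of all genes tested. With Corin alone edgeR's quasi-likelihood test called 0, beside 12.9% of all genes in either direction, with 2 members at an unadjusted p under 0.05. DOT1L, the H3K79 methyltransferase, was at 34.1 and 25.4 CPM in DMSO, 22.9 and 23.1 with ATRA, 25.8 and 32.4 with Corin, and 13.8 and 10.2 with both, a log2 change of -1.31 (SE 0.17, adjusted p = 1.30e-05). KMT2A, the H3K4 methyltransferase rearranged in some leukemias, was at 167 and 165 CPM in DMSO, 143 and 123 with ATRA, 122 and 167 with Corin, and 83.1 and 73.1 with both, a log2 change of -1.09 (SE 0.13, adjusted p = 1.81e-06). For both genes the libraries with both agents lay below the 6 others.

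SETD1A, which trimethylates H3K4 at promoters, was at 10.8 and 9.77 CPM in DMSO and 5.62 and 4.43 with both agents, with 7.94 and 7.92 in the ATRA libraries and 7.74 and 11 in the Corin libraries (log2 change -1.03, SE 0.18, adjusted p = 3.04e-05). KMT2D, an enhancer H3K4 methyltransferase, was at 121 and 88.3 CPM in DMSO, 88.4 and 79.98 with ATRA, 67.3 and 107 with Corin and 54.9 and 40.8 with both. Its change of -1.13 (SE 0.31, adjusted p = 0.0287) missed the threshold without the first DMSO library, without either ATRA library and without either library with both agents (adjusted p 0.0597 to 0.14). KMT2C, the paralog of KMT2D, was the member that rose, by 0.40 (adjusted p = 0.0056), and its reads can be shared with pseudogene copies. In SKNO-1, the H3K36 methyltransferase NSD1 fell with both agents, by 0.40 (adjusted p = 0.000963), and with Corin, by 0.28 (adjusted p = 0.00611, and 0.0541 without the first Corin library). DOT1L fell with Corin by 0.53 (adjusted p = 0.0467), a call lost without any one of 7 of the 8 libraries, all but the second DMSO library (adjusted p 0.0633 to 0.206).

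Of the 9 acetyltransferases, 3 rose and 1 fell with ATRA in U-937 (21.7% and 20.1% of all genes), and 2 rose and 4 fell with both agents (33.1% and 32.2%), counts near the shares of all genes. KAT2B and KAT2A are alternative catalytic subunits of the SAGA and ATAC coactivators. They moved in opposite directions with ATRA and with both agents in U-937. KAT2B (ENSG00000114166.8, chr3:20040446-20154404) was at 24.9 and 25.8 CPM in U-937 DMSO, 58.0 and 59.4 with ATRA, 18.7 and 20.8 with Corin, and 39.6 and 45.6 with both. The 4 groups did not overlap. The log2 change was 1.21 with ATRA (SE 0.11, adjusted p = 2.61e-09), -0.36 with Corin (SE 0.11, adjusted p = 0.0312) and 0.75 with both agents (SE 0.11, adjusted p = 1.66e-06). The call with Corin was lost without either DMSO library, the second ATRA library or the first Corin library (adjusted p 0.0503 to 0.188).

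KAT2A was at 36.8 and 28.7 CPM in U-937 DMSO, 22.5 and 20.5 with ATRA, 31.2 and 33.7 with Corin, and 20.6 and 16.1 with both. It fell by 0.61 with ATRA (SE 0.13, adjusted p = 0.000735) and by 0.84 with both agents (SE 0.13, adjusted p = 1.08e-05). In SKNO-1 KAT2B was at 10.2 and 11.2 CPM in DMSO, 11.6 and 9.92 with ATRA, 8.66 and 7.61 with Corin, and 6.54 and 6.18 with both, a log2 change of -0.75 with both agents (SE 0.14, adjusted p = 0.00282). KAT2A was at 50.3 and 36.8 CPM in SKNO-1 DMSO and 24.0 and 25.7 with Corin, a fall of 0.81 (SE 0.14, adjusted p = 0.00338). KAT2B was also called lower with Corin there, with a log2 change of -0.40. With Corin in SKNO-1, 5 of 9 acetyltransferases fell and none of the 9 rose by edgeR's quasi-likelihood test (17.3% and 20.5% of all genes). The coactivator EP300 fell with both agents in U-937, by 0.59.

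The deacetylases were the class with most calls upward with both agents in U-937, where 6 of 8 rose and 1 fell, with a median log2 change of 0.89. Among all genes tested 33.1% were higher and 32.2% lower in that comparison. The class I enzyme HDAC3, the catalytic subunit of the NCoR and SMRT corepressors, was the one that fell, by 0.25 (adjusted p = 0.0319, and 0.167 without the second DMSO library or the first library with both agents). HDAC9, a class IIa enzyme, was low throughout. Its CPM in U-937 was 0.251 and 0.339 in DMSO, 0.331 and 0.395 with ATRA, 1.44 and 1.11 with Corin, and 0.710 and 0.893 with both, from 18 counts in DMSO, 88 with Corin and 50 with both agents. The log2 change was 2.11 with Corin (SE 0.44, adjusted p = 0.00155) and 1.43 with both agents (SE 0.46, adjusted p = 0.00827). The call with both agents was lost without the first DMSO library (adjusted p = 0.0684) and without the second library with both agents (0.0509).

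HDAC9 rested on as few counts in SKNO-1: 23 in DMSO, 65 with Corin and 54 with both. It was at 0.318 and 0.316 CPM in DMSO, 0.210 and 0.378 with ATRA, 1.17 and 0.705 with Corin, and 0.748 and 0.900 with both. The log2 change with Corin was 1.55 (SE 0.40, adjusted p = 0.0169), which missed the threshold by DESeq2 (adjusted p = 0.0515) and without the first Corin library (0.127). With both agents it was 1.37 (SE 0.41, adjusted p = 0.0245), which missed it by DESeq2 (0.0910) and without either library with both agents (0.0634 and 0.122). The Corin libraries lay above the DMSO libraries in both lines.

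HDAC11 in SKNO-1 was at 0.0578 and 0.0527 CPM in DMSO, 0.0600 and 0.108 with ATRA, 0.513 and 0.617 with Corin, and 0.374 and 0.750 with both, from 4, 6, 39 and 37 counts. The log2 change was 3.27 with Corin (SE 0.61, adjusted p = 0.00392) and 3.27 with both agents (SE 0.62, adjusted p = 0.00300). All 4 libraries with Corin lay above the 4 without it, and with 4 counts in DMSO the size of the change is poorly fixed. In U-937, where HDAC11 started higher, it was at 3.07 and 3.36 CPM in DMSO, 3.39 and 3.34 with ATRA, 5.59 and 4.41 with Corin, and 6.30 and 5.67 with both. It rose there with both agents by 0.90 (SE 0.20, adjusted p = 0.000487) and with Corin by 0.64 (adjusted p = 0.0394). The latter call was lost without any single DMSO or ATRA library or the first Corin library (adjusted p 0.0523 to 0.308).

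Among the other deacetylases, SIRT1, an NAD-dependent enzyme, was at 27.7 and 33.1 CPM in U-937 DMSO and 53.6 and 58.1 with both agents, and at 29.0 and 37.6 CPM in SKNO-1 DMSO and 24.7 and 22.4 with both. It rose in U-937 by 0.88 (adjusted p = 1.71e-07) and fell in SKNO-1 by 0.50 (adjusted p = 0.0127, and 0.0906 without the second library with both agents). SIRT2 rose in U-937 with ATRA by 0.45 (adjusted p = 0.00132) and with both agents by 0.64 (adjusted p = 1.04e-05). HDAC10 rose with both agents by 0.95 (adjusted p = 0.00991), but its libraries were at 2.66 and 2.21 CPM in DMSO and 6.39 and 2.95 with both, and without the first of the latter the change was 0.28 (adjusted p = 0.440). It also missed the threshold without the second DMSO library (adjusted p = 0.0891). HDAC4, measured in SKNO-1 only, was at 13.6 and 14.0 CPM in DMSO, 12.3 and 12.5 with ATRA, 8.04 and 7.81 with Corin and 11.9 and 11.5 with both, and fell with Corin by 0.80 (SE 0.10, adjusted p = 0.000663).

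Of the 12 demethylases, 4 rose and 2 fell with both agents in U-937 (33.1% and 32.2% of all genes) and 3 rose and 3 fell with ATRA (21.7% and 20.1%), upward shares near those of all genes. In SKNO-1, 1 rose and 5 fell with Corin (20.5% and 17.3% of all genes), and 1 rose and 6 fell with both agents (24.7% and 22.0%). KDM1B, the paralog of the Corin target KDM1A, fell with Corin and with both agents in each line. It was at 70.2 and 68.7 CPM in U-937 DMSO, 44.9 and 41.6 with ATRA, 46.5 and 49.1 with Corin, and 30.9 and 34.5 with both. In SKNO-1 it was at 45.6 and 51.2, 38.5 and 41.0, 32.1 and 31.0, and 25.1 and 24.0 CPM in the same order. The libraries with both agents were the lowest and those in DMSO the highest in both lines.

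The log2 change of KDM1B in U-937 was -0.68 with ATRA (SE 0.10, adjusted p = 7.03e-06), -0.54 with Corin (SE 0.10, adjusted p = 0.000547) and -1.09 with both (SE 0.10, adjusted p = 1.92e-09). In SKNO-1 it was -0.62 with Corin (SE 0.08, adjusted p = 0.00100) and -0.98 with both (SE 0.09, adjusted p = 8.33e-05). The fall with ATRA alone was not called in SKNO-1. The H3K9 demethylase KDM3B fell with Corin in SKNO-1 by 0.43 (adjusted p = 0.0012) and in U-937 by 0.33 (adjusted p = 0.0228), the latter lost without any single DMSO or Corin library (adjusted p 0.0638 to 0.177).

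KDM7A fell with ATRA in U-937 and rose with Corin in SKNO-1. In U-937 it was at 45.1 and 53.5 CPM in DMSO, 15.0 and 14.3 with ATRA, 56.2 and 57.9 with Corin, and 39.4 and 49.1 with both. ATRA alone gave a log2 change of -1.75 (SE 0.12, adjusted p = 3.92e-11), while Corin alone (0.21) and both agents together (-0.16) were not called. In SKNO-1 it was at 1.01 and 1.37 CPM in DMSO, 0.990 and 1.00 with ATRA, 4.5 and 4.67 with Corin, and 3.05 and 2.94 with both, from 87 counts in DMSO and 317 with Corin. It rose there with Corin by 1.94 (SE 0.19, adjusted p = 0.000210) and with both agents by 1.32 (SE 0.20, adjusted p = 0.00103), and its value with ATRA (-0.26) was not called.

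KDM2B, an H3K36 demethylase and subunit of a variant Polycomb complex, was at 48.9 and 49.9 CPM in U-937 DMSO, 109 and 109 with ATRA, 46.1 and 43.0 with Corin, and 88.4 and 84.9 with both. All 4 libraries with ATRA lay above the 4 without it. The log2 change was 1.14 with ATRA (SE 0.10, adjusted p = 1.13e-09) and 0.81 with both agents (SE 0.10, adjusted p = 8.21e-08). In SKNO-1 KDM2B was at 51.6 and 44.2 CPM in DMSO and 33.9 and 34.1 with Corin, a fall of 0.49 (adjusted p = 0.00441). KDM4C, which acts on H3K9 and H3K36, rose with both agents in U-937 by 0.86 (adjusted p = 4.91e-08), and KDM5A, an H3K4 demethylase, by 0.63 (adjusted p = 6.03e-06).

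**Figure D4:**
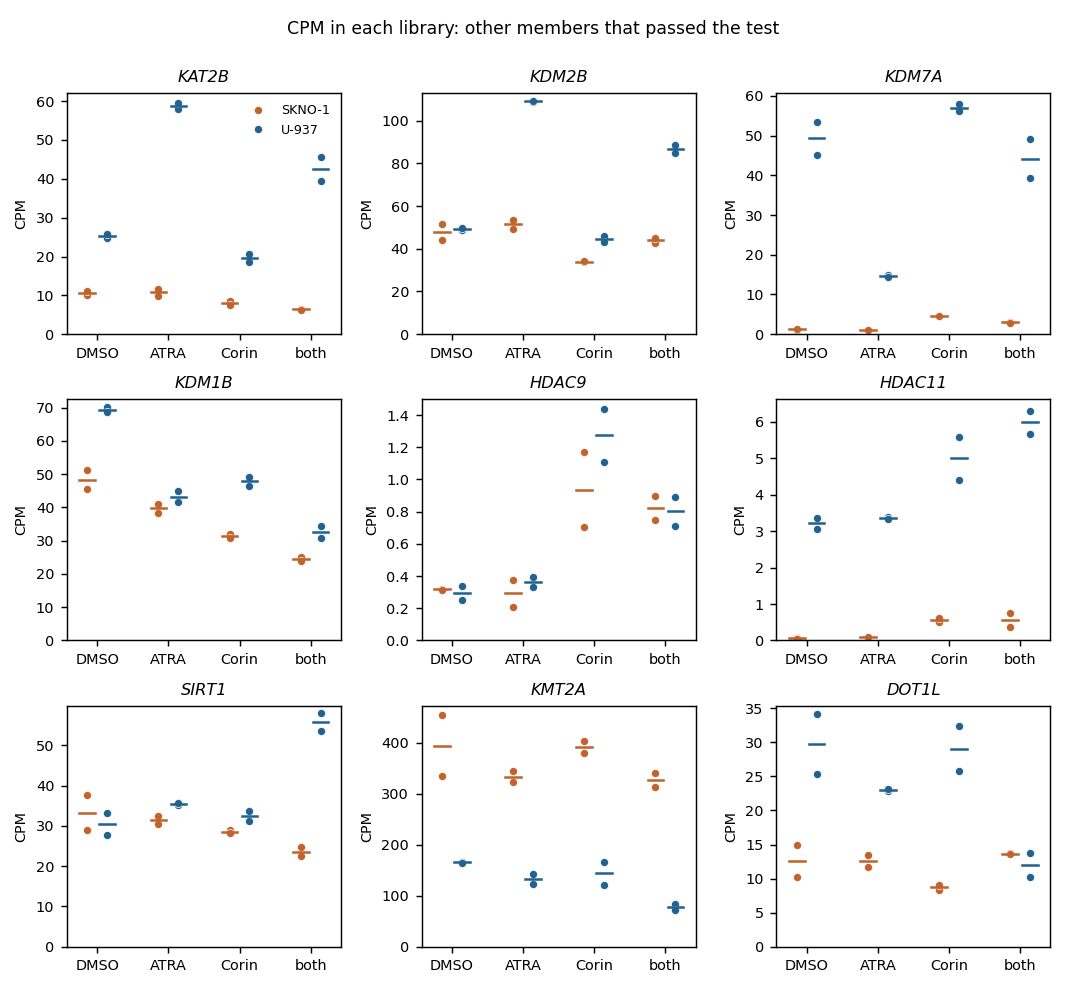
CPM of 9 further members (KAT2B, KDM2B, KDM7A, KDM1B, HDAC9, HDAC11, SIRT1, KMT2A and DOT1L) in each library (points) with group means (bars), each axis starting at 0. In U-937, KAT2B and KDM2B stand highest with ATRA alone and KDM7A lowest, and HDAC9 and HDAC11 are raised in the libraries with Corin of both lines.

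The 2 agents together were also set against each alone. In U-937 both agents against ATRA gave 9 members higher and 19 lower, against 22.5% and 24.8% of all genes tested (47.4% in either direction), and both against Corin gave 15 higher and 22 lower, against 29.9% and 30.6% (60.5%). Against ATRA alone, SUV39H2 was lower by a log2 difference of -2.42, SUV39H1 of -1.70 and EZH2 of -1.69, and KDM7A was higher by 1.59. In SKNO-1 both agents against ATRA gave 5 higher and 18 lower, against 23.0% and 21.8% (44.8% in either direction), with counts of 14 and 15 without the first or second ATRA library and 15 without the second library with both agents. Both against Corin gave 3 higher and 3 lower, against 4.82% and 5.6% (10.4% in either direction). EZH1, HDAC4 and KDM2B were higher there by 0.69, 0.56 and 0.37, and KDM5B, KDM1B and KDM3A were lower. That count of 6 rose to 32 without either DMSO library and was 3 or 2 without any single library of the other groups.

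Whether the effect of both agents equals the sum of the single effects was tested as a departure on the log2 scale. In U-937 the departure was called for 16 of 50 members, 6 upward and 10 downward, against 8.09% upward and 15.3% downward (23.4% in all) among all genes tested. The split was 10 to 9 with the GC trend removed, a setting that shifted the median of all genes by 0.12. By class, 5 repressive methyltransferase genes, 2 active ones, 2 arginine methyltransferases and 1 acetyltransferase departed downward, and 4 demethylases, 1 deacetylase and EZH1 upward. EZH2 had a sum of single effects of 0.21 and a change of -1.57 with both, a departure of -1.78 (adjusted p = 7.81e-10). SUV39H2 departed by -1.99 (adjusted p = 6.72e-09), SUV39H1 by -1.47 (adjusted p = 1.16e-07) and PRMT5 by -1.12 (adjusted p = 4.57e-06). EZH1 departed by 1.03 (adjusted p = 1.01e-05) and KDM7A by 1.38 (adjusted p = 8.24e-07), whose fall with ATRA alone was called and whose value with both agents was not.

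SUZ12 departed by -0.75 (adjusted p = 0.000201), and EED, whose change with both agents was not called, by -0.59 (adjusted p = 0.00654, and 0.0679 without the second ATRA library), so 3 of the 4 PRC2 genes departed downward and EZH1 upward. All 15 cell cycle genes also departed downward in U-937. Their part in the departure of the enzymes was not tested. In SKNO-1 edgeR's quasi-likelihood test called a departure for 0 of 51 members (8 at an unadjusted p under 0.05), and DESeq2 called 1, HDAC4. Of all genes tested 0.463% were called, 0.315% upward and 0.149% downward. The count was 6 without the first SKNO-1 DMSO library and 27 without the second.

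**Figure D5:**
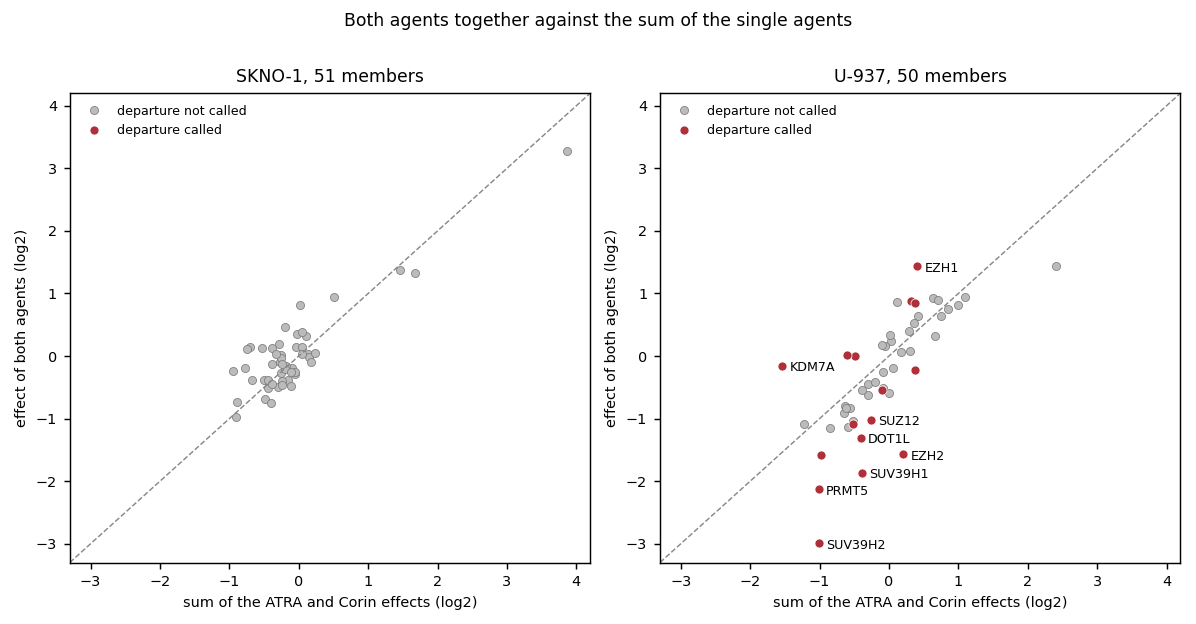
Log2 change with both agents (vertical) against the sum of the log2 changes with ATRA and with Corin (horizontal), 51 members in SKNO-1 and 50 in U-937; the line marks equality and red points a departure with adjusted p under 0.05. In U-937, EZH2, SUV39H1 and SUV39H2 lie below the line and KDM7A and EZH1 above it.

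The responses themselves were compared between the lines in the fit over all 16 libraries. The ATRA effect differed for 11 of 51 members, 4 more positive and 7 more negative in U-937, against 10.6% and 8.81% of all genes tested (19.4% in all). KAT2B and KDM2B were more positive by 1.25 and 1.08 and KDM5A by 0.43, the value of HDAC4 rested on its few counts in U-937, and KDM7A differed by -1.44. The Corin effect differed for 6 members, 4 positive and 2 negative, against 5.28% and 7.49% (12.8% in all), and for 16 without the second SKNO-1 DMSO library. The negative ones were HDAC11 (-2.64) and KDM7A (-1.72). The effect of both agents differed for 30 members, 14 positive and 16 negative, against 17.9% and 22.7% (40.6% in either direction), and the split was 10 to 20 with libraries scaled by totals alone, which shifted the median of all genes by -0.16.

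By class, the effect of both agents was more negative in U-937 for 6 of 9 active methyltransferases, 5 of 9 repressive ones and 3 of 3 arginine methyltransferases. It was more positive for 7 of 12 demethylases and 3 of 9 acetyltransferases. Among all genes tested it was more negative for 22.7% and more positive for 17.9%. SUV39H2 differed by -2.27, PRMT5 by -1.64 and CARM1 by -1.5, and SIRT1 differed by 1.43 and KAT2B by 1.55.

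A further list held 37 other histone modifying enzymes, and another held 46 partners of the members in their complexes. With both agents in U-937, 12 of the 37 enzymes rose and 15 fell, and 12 of the 46 partners rose and 21 fell, beside 33.1% higher and 32.2% lower among all genes tested. The upward counts were thus at or below the share of all genes and the downward counts above it, a difference that was not tested. WDR5, the shared subunit of the H3K4 methyltransferase complexes, fell by 2.36 on the log2 scale and departed from the sum of single effects by -1.30. PRMT3 fell by 1.25 with ATRA, 0.61 with Corin and 2.28 with both agents in U-937. NCOA3, a nuclear receptor coactivator with acetyltransferase activity, rose with ATRA by 1.98 in U-937 and by 1.26 in SKNO-1, where it was the only one of the 37 called by edgeR's quasi-likelihood test.

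In SKNO-1, Corin gave 4 higher and 10 lower of the 37 enzymes and 4 higher and 23 lower of the 46 partners, beside 20.5% higher and 17.3% lower among all genes tested. JADE2 and JADE1, scaffold subunits of the KAT7 acetyltransferase complex, fell by 0.98 and 0.90. Of the Corin targets KDM1A, HDAC1, HDAC2 and RCOR1, none of the 4 was called with Corin in SKNO-1 by edgeR's quasi-likelihood test. With both agents in SKNO-1, 3 of the 4 were called lower by that test, beside 22.0% of all genes tested. KDM1A fell by 0.27 (adjusted p = 0.00316), RCOR1 by 0.33 (adjusted p = 0.0129) and HDAC2 by 0.26 (adjusted p = 0.0149). With both agents in U-937 KDM1A fell by 1.23 (adjusted p = 1.44e-10), HDAC2 by 1.00 and RCOR1 by 0.29, while HDAC1 rose by 0.40.

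In the authors' deposited table of both agents against DMSO in U-937, 14 members were called higher and 23 lower, and 35 of the 38 called here were called there in the same direction. In the authors' deposited tables for SKNO-1, 13 of the 21 members called here with Corin and 16 of the 20 with both agents were called in the same direction, and ATRA gave 0 higher and 0 lower.

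SIRT6, a sirtuin that deacetylates H3K9 and was matched by its identifier alone, was at 3.35 and 2.24 CPM in U-937 DMSO, 4.08 and 5.71 with ATRA, 4.82 and 5.09 with Corin, and 5.77 and 5.05 with both. It rose there with each treatment, by 0.80 (adjusted p = 0.00646), 0.82 (adjusted p = 0.0170) and 0.95 (adjusted p = 0.000833). These calls of SIRT6 were left out of the summaries of alternative runs and of leaving out a library. In SKNO-1 it was at 2.34 and 0.790 CPM in DMSO and was not called.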

How the data were processed

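RNA was sequenced from 16 libraries of 2 cell lines, 2 libraries per group. RSEM's estimated counts for each gene, effective lengths and TPM were deposited by the authors, who also deposited tables of log2 fold changes and p-values from their own comparisons. The submitters' processing notes name Trimmomatic, STAR, RSEM, deepTools, DESeq2 and genome hg38. Their versions, the annotation release and the strand setting of the counting are not given in the sources used here, so reads of overlapping or near-identical genes may be split between them. Estimated counts were rounded to whole numbers.

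Each line's 8 libraries were fitted with edgeR 4.0.16 in R 4.3.3 (filterByExpr, TMM, robust quasi-likelihood test, Benjamini-Hochberg adjustment over the 17479 genes of SKNO-1 and the 17717 of U-937 that passed the filter), and all 16 libraries, over 19872 genes, for differences between lines. CPM are TMM-scaled within a line. The 3 comparisons with DMSO in a line share their DMSO libraries. With 2 libraries per group an exact permutation test cannot go below p = 0.333, so no single-gene permutation test was made. In simulated counts for both agents against DMSO, 99% (SKNO-1) and 100% (U-937) of 100 genes changed 2-fold were recovered, and 68% and 46% of those changed 1.5-fold. The simulation gave every gene the same spread and had no difference between libraries that followed GC content. Only well-counted genes were changed in it. Recovery may thus be lower in the real libraries, those of SKNO-1 DMSO above all. It says nothing of members with few counts such as HDAC9.

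Library values are given for members called with an absolute log2 change of at least 1 against DMSO or 2 between lines, and for the largest call of a class; others are summarised. The other lists are described by counts and their 2 largest calls. The members and lists were chosen with earlier results of these data known. Alternatives tried were no count filter, scaling by library totals, DESeq2 1.42.0, removal of the trend on GC content, a replicate block, fits of only the libraries compared, and leaving out each library.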

Additional observations from a re-analysis of the deposited data

Results flagged for a closer look

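The size of the response differed between the lines for 11 members with ATRA, 6 with Corin and 30 with both agents, of 51 tested. The difference itself was tested (U-937 minus SKNO-1, the quasi-likelihood test of edgeR with Benjamini-Hochberg adjustment). These counts are 21.6%, 11.8% and 58.8% of the members, beside 19.4%, 12.8% and 40.6% of all genes tested. Those with ATRA and with Corin were thus near the share of all genes. With ATRA the log2 difference was 1.08 for KDM2B, 1.25 for KAT2B, -1.44 for KDM7A and -1.04 for PRMT1. With Corin it was -2.64 for HDAC11 and -1.72 for KDM7A.

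With both agents the deacetylase HDAC11 differed by -2.33 and SIRT1 by 1.43, and the demethylase KDM7A by -1.43. The value for HDAC11 was -1.75 (adjusted p = 0.0574) without the second SKNO-1 library with both agents. Among the methyltransferases of active chromatin the difference was -1.22 for KMT2D, -1.11 for SETD1A and -1.39 for DOT1L, and that for KMT2D missed the threshold in 8 alternative settings (adjusted p 0.0691 to 0.214). Among the repressive methyltransferases it was -1.09 for SUV39H1, -2.27 for SUV39H2 and -1.57 for EZH2. The acetyltransferase KAT2B differed by 1.55, and the arginine methyltransferases PRMT1, PRMT5 and CARM1 by -1.58, -1.64 and -1.5.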

How the results depend on the processing

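Of 305 called values of members over all comparisons, 188 kept their call under every alternative run, 117 lost it under at least one and 0 changed direction. DESeq2 lost 10 of the 305, the GC correction 11, that correction with the replicate block 14, the replicate block alone 17, no count filter 16 and scaling by library totals 41, and a fit of only the libraries compared lost 36 of the 289 it could test. Counts of called members that moved by over 1.5 times are these. For ATRA in SKNO-1 (0), the count was 3 with no filter, 4 with the GC correction and 2 with that and the block. For Corin in SKNO-1 (21) it was 11 in a fit of only the libraries compared, and for both agents there (20) it was 31 with the GC correction. For both agents against Corin in SKNO-1 (6) it was 16 with no filter, 3 with the replicate block and 33 with only the libraries compared. For the departure from additivity in SKNO-1 (0) it was 8 with no filter, 1 by DESeq2, 2 with the GC correction and 1 with that and the block. For Corin in U-937 (7) it was 13 with the GC correction. For the ATRA difference between lines (11) it was 19 with the GC correction, 17 with that and the block and 7 with only the libraries compared, and for the Corin difference (6) it was 13 with the GC correction, with and without the block. The cause was not tested.

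Leaving out 1 library gave, in SKNO-1, 0 to 22 calls for ATRA, 11 to 34 for Corin, 13 to 37 for both agents, 14 to 33 for both against ATRA, 2 to 32 for both against Corin and 0 to 27 for the departure. In U-937 it gave 14 to 24, 2 to 9, 34 to 40, 23 to 31, 33 to 37 and 12 to 18 in the same order. Between the lines it gave 32 to 43 in DMSO, 8 to 16 for ATRA, 4 to 16 for Corin and 27 to 33 for both agents.

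The differences between the 2 libraries of a group were correlated between groups over genes, to see whether same-numbered libraries deviate together. The values ran from -0.488 to 0.236 in SKNO-1 and from -0.447 to 0.418 in U-937, with no common sign. The highest was between U-937 DMSO and both agents, groups whose differences also followed GC content (r = 0.568 and 0.403). With 2 libraries per group these values cannot show whether the numbers pair the libraries. With the replicate block, both agents gave 38 calls in U-937. A fit of only the libraries compared was not run for the departure from additivity. Depth limits HDAC9, HDAC11 and KDM7A in SKNO-1 and HDAC4 in U-937.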
